A study of Mus musculus with 6 samples.

Results

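Caveolae are small flask-shaped pits of the plasma membrane, and the genes described here encode their coat. The set was defined by name as the caveolins Cav1 and Cav2, the cavins Cavin1, Cavin2 and Cavin3, and the neck protein Ehd2. All 6 were listed among the 14254 genes of the deposited table, and all 6 passed the filter on low values. RNA was sequenced from organoids of KPF_5.3G, a line of mouse pancreatic ductal adenocarcinoma, which were cultured in a medium with Noggin, R-Spondin-1, gastrin, hFGF-10 and EGF. The knockdown organoids (shJag1_3, 3 libraries) carried a lentiviral short hairpin RNA against Jag1, a membrane-bound ligand of the Notch receptors, and are labelled Jag1 knockdown. The control organoids (shCtrl, 3 libraries) carried a control hairpin, and their genotype is labelled WT. The samples come from 1 tumour line and 1 Jag1 hairpin, and the study describes its replicates as biological. The comparison asks how the transcriptome differs when Jag1 is knocked down.

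Caveolin-1 inserts into the inner face of the plasma membrane and oligomerises there, and caveolin-2 joins its oligomers. Cavins are cytosolic proteins that assemble on caveolin-rich membrane into an outer coat, with cavin-1 as the obligate component. EHD2, an ATPase that oligomerises on membranes, sits at the neck of the pit and holds it at the cell surface. Caveolae are best known from endothelial cells, adipocytes, muscle and fibroblasts, and caveolin-1 is often abundant in pancreatic tumour cells with mesenchymal features.

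The libraries held between 22268997 and 35172593 reads, and the lowest read count of any member in any library was 152. Values are normalised read counts, that is reads divided by 1 size factor per library, and log2 changes are knockdown minus control on the log2(normalised count + 1) scale with the standard error (SE) of limma. Both libraries numbered 1 stood apart from the other 4 on the first principal component, which held 55.8% of the variance, so values are also given by library number. The share of mitochondrial reads was 0.551%, 1.01% and 1.20% in knockdowns 1, 2 and 3, against 0.592%, 1.54% and 2.02% in controls 1, 2 and 3. It was lowest in both libraries numbered 1 and lower in the knockdown of each pair, and its part in the results below was not tested. Jag1 itself had 226, 321 and 557 normalised counts in knockdowns 1, 2 and 3, against 412, 983 and 847 in controls 1, 2 and 3. It was lower in each knockdown than in the control with the same number, but the groups overlapped. Its log2 change of -1.03 did not pass limma (adjusted p = 0.691), the two-sided exact permutation p was 0.2 (0.1 is the smallest possible), and DESeq2 with the replicate number in the model called it (adjusted p = 0.0063). All 5 epithelial markers (Epcam, Cdh1, Krt8, Krt18 and Krt19) were listed, with summed normalised counts of 170388 to 456959 in knockdown libraries and 127288 to 174299.5 in control libraries. Epcam, Cdh1, Krt8 and Krt19 were higher in every knockdown library than in every control library, as were 6.29% of tested genes. The groups overlapped for Krt18, and knockdown 3 held 96.4% of control 3. DESeq2 with the replicate number called Epcam, Krt8 and Krt19 higher (log2 changes of 1.37, 1.08 and 1.44, adjusted p of 2.83e-04, 8.67e-04 and 4.01e-04). That fit called 7.43% of all genes in either direction. Limma called none of the 5 markers (adjusted p from 0.606 to 0.905).

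Cavin2 was the member that differed most between knockdown and control organoids, and the one whose groups did not overlap. Cavin-2 binds phosphatidylserine and, in other cells, bends caveolar membrane. It had 640.2, 187 and 222 normalised counts in knockdowns 1, 2 and 3, against 891, 1933 and 1720.3 in controls 1, 2 and 3. Every knockdown library lay below every control library. Groups did not overlap in the lower direction in 5.44% of the 13997 genes tested. The means were 349.5 ± 252 in knockdown and 1515 ± 551 in control organoids (SD, n = 3 each), so knockdown organoids held 23.1% of the control level.

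Cavin2 was lower in knockdown in each pair of same-numbered libraries. Knockdown 1 held 71.9% of control 1, whereas knockdown 2 held 9.7% of control 2 and knockdown 3 held 12.9% of control 3. In the knockdown group the library numbered 1 was the highest of the 3, and in the control group it was the lowest. Whether the difference itself changes between library numbers was not tested, since each number has 1 library per group. In bulk RNA, fewer cells that express a gene and less RNA per cell cannot be told apart, and this holds for every member.

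The log2 change of Cavin2 was -2.26 (SE 0.53), a value at or below which 0.336% of the tested genes lay (47 genes). It did not pass limma after Benjamini-Hochberg adjustment over all tested genes (unadjusted p = 0.00385, adjusted p = 0.604), and limma called 0 of the 6 members and 0.0% of all genes, with 1021 genes at an unadjusted p below 0.05. edgeR called none either (adjusted p = 0.611 for Cavin2). With the replicate number in the model limma and edgeR gave Cavin2 adjusted p of 0.153 and 0.187, and each called 0.0143% of the genes. DESeq2 called Cavin2 lower without the replicate number (-2.11, SE 0.55, adjusted p = 0.0186) and, just inside the threshold of 0.05, with it (-2.32, SE 0.80, adjusted p = 0.0498). The DESeq2 fits called 0.524% of genes lower without the replicate number and 2.71% with it. Cavin2 was the 1 member called by either of them. Without both libraries numbered 1, limma called it too (-3.16, adjusted p = 0.00421), in a fit that called 3.57% of all genes lower.

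Of endothelial cells, which make Cavin2 in abundance, 2 of 7 markers were listed (Tek and Esam), with summed normalised counts of 11.1 to 147 in knockdown and 24.9 to 206 in control libraries. The defining endothelial markers Pecam1, Cdh5, Kdr, Emcn and Cldn5 were not listed. The endothelial sum was 147, 11.1 and 24.5 in knockdowns 1, 2 and 3, against 206, 52.8 and 24.9 in controls 1, 2 and 3. It was thus nearly equal between the groups for number 3, and highest in the library numbered 1 of each group. Tek had 54.4, 6.1 and 22.2 in knockdowns 1, 2 and 3, against 62.1, 8.0 and 6.2 in controls 1, 2 and 3. Its log2 change was 0.38 (SE 1.06, adjusted p = 0.965 in limma). Esam, an endothelial adhesion molecule, had 93, 4.9 and 2.3 normalised counts in knockdowns 1, 2 and 3, against 144, 44.8 and 18.7 in controls 1, 2 and 3. Knockdown libraries held 64.5%, 11.0% and 12.3% of the control of the same number. DESeq2 with the replicate number called Esam lower (log2 change -2.09, adjusted p = 0.043), but limma did not (adjusted p = 0.8). Of the fibroblast markers 2 of 8 were listed (Pdgfra and Pdgfrb), with sums of 28.9 to 45.5 in knockdown and 35.6 to 44.8 in control libraries. Of the adipocyte markers 2 of 5 were listed, Lipe and Cidec, with sums of 443 to 1252 in knockdown and 341 to 961 in control libraries. Lipe made up most of these sums. Cidec had 14.9, 40.5 and 53.5 in knockdowns 1, 2 and 3, against 18.2, 4.6 and 2.5 in controls 1, 2 and 3. Its log2 change was 2.195 (SE 0.783), and neither limma (adjusted p = 0.643) nor DESeq2 with the replicate number (adjusted p = 0.139) called it. Of the 5 smooth muscle markers Tagln was listed, at 1.2 to 10.5 in knockdown and 9.2 to 18.2 in control libraries. Of the 5 leukocyte markers Cd68 was listed, at 117, 988 and 400.4 in knockdowns 1, 2 and 3, against 98.6, 135.5 and 111 in controls 1, 2 and 3. It was higher in each pair. DESeq2 with the replicate number called Cd68 higher (log2 change 1.67, adjusted p = 0.00801), but limma did not (adjusted p = 0.691). The DESeq2 fit that called Esam and Cd68 called 7.43% of all genes in either direction. The part of these markers, and of the epithelial markers that were higher in knockdown, in the Cavin2 difference was not tested.

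**Figure D1:**
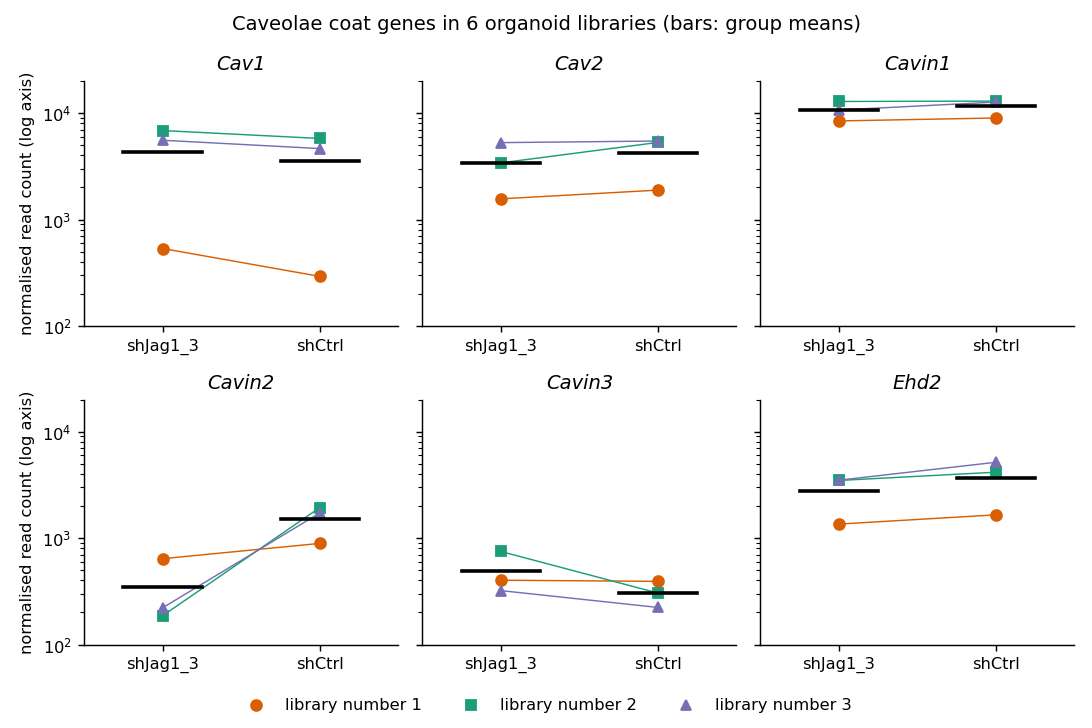
Normalised read counts (log axis) of the 6 caveolae coat genes in knockdown (left) and control (right) libraries, with lines joining libraries of the same number and black bars at the group means. Cavin2 is the panel in which every knockdown library lies below every control library, while the Cav1 panel separates libraries numbered 1 (534 in knockdown and 292.5 in control) from the others.

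Cav1, which encodes the main structural caveolin, varied mainly with the library number. It had 534, 6854 and 5557 normalised counts in knockdowns 1, 2 and 3, against 292.5, 5774.5 and 4641.5 in controls 1, 2 and 3. Libraries numbered 2 and 3 averaged 5707 and libraries numbered 1 averaged 413, a 13.8-fold difference. A split by library number of that size on the log2 scale (3.84) or larger was seen in 0.736% of the tested genes. Against this spread the knockdown mean of 4315 ± 3338 and the control mean of 3569.5 ± 2894 (SD, n = 3 each) were not distinguishable (log2 change 0.46, SE 1.40, adjusted p = 0.97 in limma). The knockdown library was the higher one in each pair, at 183%, 119% and 120% of the control for numbers 1, 2 and 3. The log2 change turned negative when control 1, knockdown 2 or knockdown 3 was left out (-0.92, -0.21 and -0.05). In limma with the replicate number in the model the SE was 0.17 and the adjusted p was 0.224.

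Cav2, the partner caveolin, lies beside Cav1 on chromosome 6, with 17220 bases between the end of Cav2 (17281185 to 17289115, plus strand, GRCm38) and the start of Cav1 (17306335 to 17341452, plus strand). It had 1565, 3406 and 5277 normalised counts in knockdowns 1, 2 and 3, against 1889.8, 5300.2 and 5465 in controls 1, 2 and 3. Cav2 too was lowest in both libraries numbered 1, but its mean in libraries numbered 2 and 3 was 2.82-fold that in libraries numbered 1, a smaller split than that of its neighbour. The log2 change was -0.32 (SE 0.57, adjusted p = 0.934 in limma), with the sign turned when knockdown 1 was left out (0.16). Knockdown libraries held 82.8%, 64.3% and 96.6% of the control of the same number, so that in each pair Cav2 was on the lower side in knockdown and Cav1 on the higher side.

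The upstream sequences of Cav1 and Cavin2 are shown because these members differed most, by library number and by group. Each is the 250 bases before the gene's annotated start, 5′ to 3′ on the plus strand, from RefSeq on GRCm38.p6, at chr6:17306085-17306334 for the more upstream of the listed Cav1 starts and chr1:51288876-51289125 for Cavin2. Capitals mark matches to 4 motifs searched on both strands: TGGGAA (bound by RBPJ, the DNA-binding partner of Notch), CAGGTG (an E-box bound by ZEB and SNAI factors), GGAATG (bound by TEAD factors) and TATAAA (the TATA box).
Cav1: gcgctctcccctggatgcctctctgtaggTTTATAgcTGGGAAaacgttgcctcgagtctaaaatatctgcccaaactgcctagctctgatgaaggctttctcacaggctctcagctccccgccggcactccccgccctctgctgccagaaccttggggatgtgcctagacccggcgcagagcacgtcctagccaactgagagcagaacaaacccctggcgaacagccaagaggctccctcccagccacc
Cavin2: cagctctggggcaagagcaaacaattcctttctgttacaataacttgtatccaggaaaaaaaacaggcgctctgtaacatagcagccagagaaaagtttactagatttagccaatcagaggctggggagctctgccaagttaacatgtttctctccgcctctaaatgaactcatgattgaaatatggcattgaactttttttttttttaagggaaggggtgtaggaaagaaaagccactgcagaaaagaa
The Cav1 window held TGGGAA from 213 bases before the start and TATAAA on the minus strand from 221 bases before it, which do not overlap. The Cavin2 window held none of the 4 motifs. TGGGAA on either strand stood in 21.6% of all 32851 RefSeq windows of this length, CAGGTG in 17.2%, GGAATG in 12.6% and TATAAA in 12.4%. The Cavin2 window was 40.4% G or C and this Cav1 window 59.6%, beside a median of 52.4%. Across the 7 windows listed for 5 members, TGGGAA matched in 1, CAGGTG in 1 (at the other Cav1 start), GGAATG in 2 (both of Cavin1, whose 2 windows overlap) and TATAAA in 1, and the Cav2 and Ehd2 windows held none. No window was listed for Cavin3.

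Cavin1 (chromosome 11, 100956733 to 100970887, minus strand), which encodes the cavin that caveola formation requires, was the most abundant member. It differed little between the groups. It had 8439, 12854 and 10684 normalised counts in knockdowns 1, 2 and 3, against 8992.5, 12951 and 12688 in controls 1, 2 and 3. Knockdown libraries held 93.8%, 99.3% and 84.2% of the control of the same number. The log2 change was -0.12 (SE 0.23, adjusted p = 0.944 in limma), and it was 0.04 without knockdown 1. Cavin1 too was lowest in both libraries numbered 1, and its mean in libraries numbered 2 and 3 was 1.41-fold that in libraries numbered 1. A split of that size on the log2 scale (0.493) or larger was seen in 44.9% of the tested genes.

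Cavin3 (chromosome 7, 105480083 to 105482300, minus strand), first described as a binding protein of protein kinase C delta, was on the higher side in knockdown organoids, opposite to Cavin2. It had 402, 748 and 321 normalised counts in knockdowns 1, 2 and 3, against 392, 304 and 223 in controls 1, 2 and 3. Knockdown libraries held 103%, 246% and 144% of the control of the same number, but knockdown 3 lay below control 1, so the groups overlapped. The log2 change was 0.62 (SE 0.38, adjusted p = 0.78 in limma, 0.254 in DESeq2 with the replicate number). DESeq2 called it higher when both libraries numbered 1 were left out (0.92, adjusted p = 0.0258), in a fit that called 9.62% of genes higher. A predicted transcript on the opposite strand (Gm45667) shares exonic bases with Cavin3, and the library kit does not mark strand, so reads of both cannot be told apart there.

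Ehd2 (chromosome 7, 15946958 to 15967567, minus strand) was lowest in both libraries numbered 1, as were both caveolins and Cavin1. It had 1352, 3474 and 3495 normalised counts in knockdowns 1, 2 and 3, against 1652, 4156 and 5149.8 in controls 1, 2 and 3. Libraries numbered 2 and 3 averaged 2.71-fold the level of libraries numbered 1. Knockdown libraries held 81.9%, 83.6% and 67.9% of the control of the same number. The log2 change was -0.37 (SE 0.54, adjusted p = 0.919 in limma, 0.214 with the replicate number in the model), and it was 0.09 without knockdown 1.

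**Figure D2:**
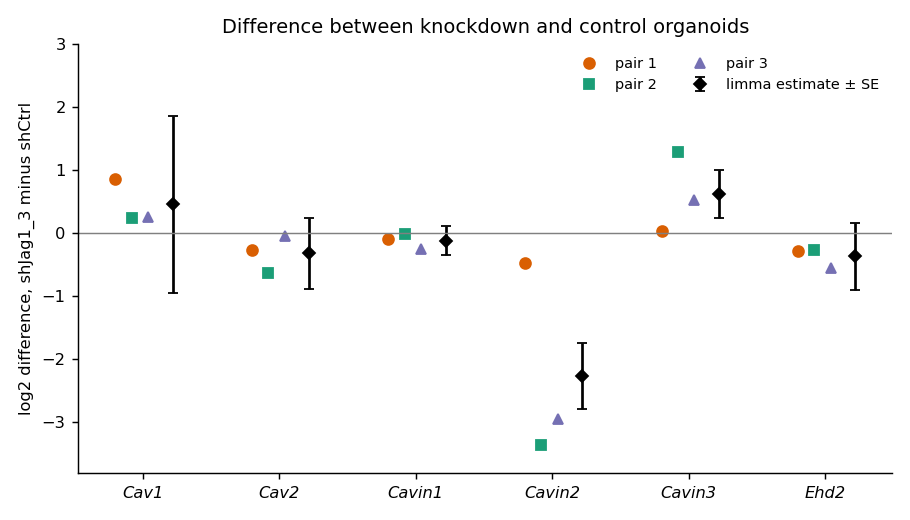
Log2 difference, knockdown minus control, of each caveolae coat gene in each pair of same-numbered libraries (coloured points) and as estimated by limma with its SE (black diamonds). Cavin2 lies at -0.48, -3.36 and -2.95 in pairs 1, 2 and 3, and the estimates of the other members lie between -0.37 and 0.62.

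Each of the 6 members had the same sign in all 3 pairs, 4 on the lower side (Cav2, Cavin1, Cavin2 and Ehd2) and 2 on the higher side (Cav1 and Cavin3). Of all tested genes 42.0% had the same sign in all 3 pairs. Cavin1 in pair 2 (-0.01), Cavin3 in pair 1 (0.04) and Cav2 in pair 3 (-0.05) were close to 0. The median log2 change was -0.22 over the 6 members and 0.00 over all tested genes, and the median size of the split by library number was 0.96 over the members and 0.43 over all genes. When libraries were scaled by their spike-in reads, the median change of all genes moved to -0.18, no member changed sign, and the change of Cavin2 relative to that median was -2.27 (adjusted p = 0.0139 for its change of -2.44, where 0.279% of genes were called lower).

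**Figure D3:**
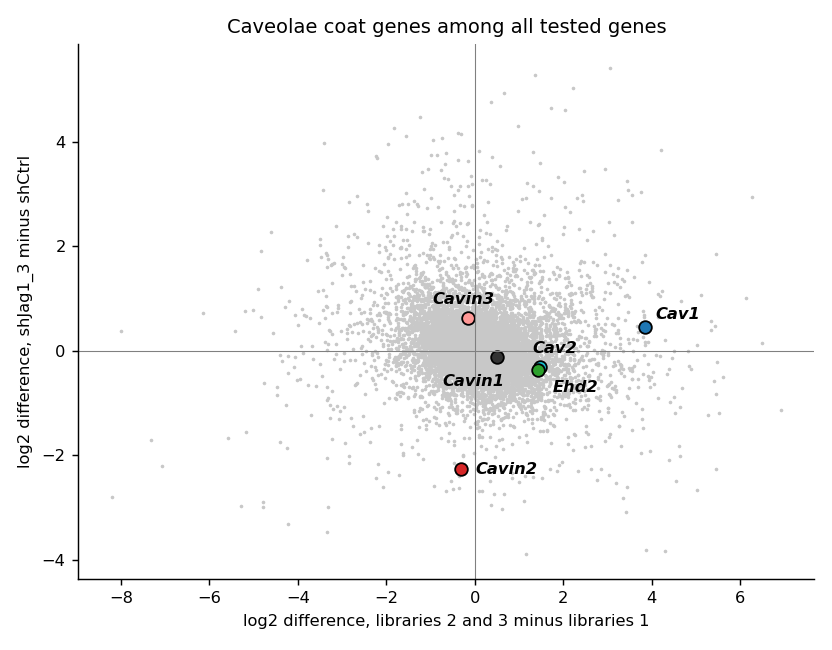
Each of 13997 tested genes (grey) and the 6 members (coloured) by their log2 difference between libraries numbered 2 and 3 and libraries numbered 1 (x) and between knockdown and control (y). Cav1 lies far along x (3.84) and at 0.46 on y, where 27.5% of tested genes had a change of that size or larger. Cavin2 lies near 0 on x (-0.31) and far down y (-2.26). Its x value averages opposite splits, since its library numbered 1 was the highest in knockdown and the lowest in control.

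Levels of different genes were compared per kilobase of exon, as normalised counts divided by the union exon length in GENCODE M21. Cavin1 led in all 6 libraries, at 2353, 3584 and 2978.5 per kilobase in knockdowns 1, 2 and 3 and 2507, 3611 and 3537 in controls 1, 2 and 3. Averaged over the 6 libraries it lay above 97.0% of the tested genes, Cav1 and Cav2 each above 90.4%, Ehd2 above 81.9%, Cavin2 above 67.0% and Cavin3 above 61.5%. Cav1 and Cav2 came next, at 1253 ± 969 and 1024 ± 557 per kilobase in knockdown and 1036 ± 840.3 and 1265 ± 605 in control organoids (SD, n = 3 each), and these neighbours in the order did not differ beyond their spread. Ehd2 followed at 542 ± 240.5 in knockdown and 714 ± 352 in control organoids, means within the SD of the caveolins. Within libraries, however, Ehd2 was below Cav2 in all 6, for example 264 beside 469 in knockdown 1 and 1006 beside 1639 in control 3. It was below Cav1 in the libraries numbered 2 and 3 and above it in both libraries numbered 1. The ratio of Cav1 to Cav2 per kilobase was 0.331, 1.95 and 1.02 in knockdowns 1, 2 and 3, against 0.15, 1.05 and 0.822 in controls 1, 2 and 3. In both libraries numbered 1 Cav1 was the lowest of the 6 members per kilobase, at 155 in knockdown 1 and 84.9 in control 1.

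The order of the minor cavins per kilobase differed between the groups. In knockdown 1 it rested on exon length, since by normalised counts Cavin2 (640.2) lay above Cavin3 (401.7) there. Per kilobase, Cavin2 stood below Cavin3 in all 3 knockdown libraries (210, 61.1 and 72.5 for Cavin2 beside 242, 450.3 and 193 for Cavin3) and above it in all 3 control libraries (291.5, 633 and 563 for Cavin2 beside 236, 183 and 134 for Cavin3). Cavin2 made up 7.47%, 1.49% and 2.24% of the summed cavin level per kilobase in knockdowns 1, 2 and 3, against 9.61%, 14.3% and 13.3% in controls 1, 2 and 3. Cavin1 held 87.7% ± 4.0 of that sum in knockdown and 82.6% ± 0.98 in control organoids (SD, n = 3 each). These shares rest on the same values as the differences above and were not tested.

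**Figure D4:**
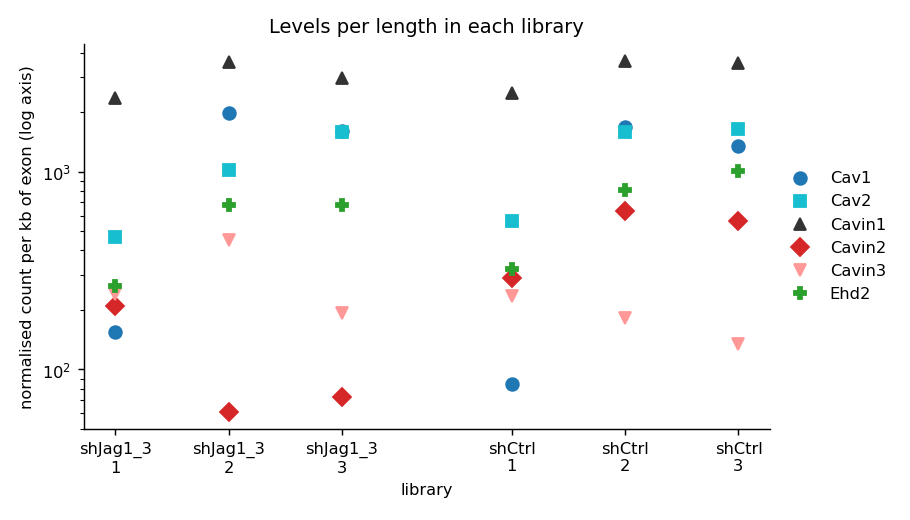
Normalised count per kilobase of exon (log axis) of the 6 members in each library, knockdown libraries left and control libraries right. Cavin1 is on top in every library (2353 to 3611), and Cavin2 is below Cavin3 in the 3 knockdown libraries and above it in the 3 control libraries.

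The members did not all follow a common pattern across the 6 libraries. Cav1, Cav2, Cavin1 and Ehd2 were each lowest in both libraries numbered 1, but Cavin2 and Cavin3 were not. As a measure of likeness, the root mean square (RMS) distance between log2 values, each centred on its gene's mean, was taken over the 6 libraries. Cav2 and Ehd2 were the closest members (0.20), and Cav1 and Cavin2 the farthest (2.44). Cav1 was 1.22 from its genomic neighbour Cav2. Among 11643 genes with a mean of at least 50, the 3 nearest to Cavin2 were Stra6, the membrane receptor for retinol-binding protein (0.27), the transcription factor gene Sox7 (0.33) and the Wnt ligand gene Wnt10a (0.36), beside a median distance of 1.35 for all. Stra6 had 4214, 1748.5 and 1324 normalised counts in knockdowns 1, 2 and 3, against 7447, 10718 and 10888 in controls 1, 2 and 3. Nearest to Cav1 were Rusc2 (0.30), the unnamed gene ENSMUSG00000093514 (0.34) and the annexin gene Anxa13 (0.34). Nearest to Cav2 were Sh3bp5 (0.09), Rhbdd1 (0.11) and St3gal6 (0.12), and nearest to Ehd2 were Ogt (0.10), Itpripl2 (0.12) and Lingo2 (0.12). Nearest to Cavin1 were Srrm2 (0.03), Snapc1 (0.04) and Fancc (0.04), and nearest to Cavin3 were Smox (0.15), Mogat2 (0.15) and Upp1 (0.19).

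Other genes of caveolae were called by DESeq2 with the replicate number about as often as all genes were, 2 of 27 tested (7.41%) beside 7.43%, and limma called 0. Of 11 genes for neck and membrane-shaping proteins (EHD, PACSIN and dynamin families and F-BAR proteins) 10 were tested, limma called 0, and DESeq2 with the replicate number called 0 higher and 1 lower. That gene was Dnm1, a dynamin best known from neurons, with 552, 133 and 55 normalised counts in knockdowns 1, 2 and 3, against 1392, 317 and 240.4 in controls 1, 2 and 3 (log2 change -1.56, adjusted p = 0.783 in limma and 4.24e-06 in that DESeq2 fit). It was lower in each pair, and its groups overlapped. The EHD paralog Ehd1 had groups that did not overlap, as 6.29% of tested genes did in the higher direction, at 3165, 3598 and 3160.3 in knockdowns 1, 2 and 3, against 2608, 2524 and 2615 in controls 1, 2 and 3 (log2 change 0.36, SE 0.14, adjusted p = 0.668 in limma). Ehd3 had a log2 change of 0.26 (SE 0.77). Of the 8 anchoring and phosphorylation genes, which include the filamin gene Flna and the kinase gene Src, limma and DESeq2 with the replicate number called 0, and their median log2 change was -0.06. The largest changes there were those of the formin gene Diaph1 (0.50, SE 0.17) and the kinase genes Yes1 (-0.31, SE 0.30) and Abl1 (-0.20, SE 0.15). Groups also did not overlap for Diaph1 in the higher direction and for Abl1 in the lower direction, as for 5.44% of tested genes in the latter.

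Of 11 receptor, channel and enzyme genes reported in caveolae 9 were tested, with a median log2 change of -0.32. DESeq2 with the replicate number called 1 of them lower and limma 0. The called gene was Igf1r, the receptor of insulin-like growth factor 1, with 549, 966 and 1079.7 normalised counts in knockdowns 1, 2 and 3, against 619, 2476 and 2042 in controls 1, 2 and 3 (log2 change -0.82, adjusted p = 0.035 in that DESeq2 fit, 0.802 in limma). Plvap, which forms the diaphragm of endothelial caveolae, was low, at 9.2 to 35.1 in knockdown and 36.1 to 61.3 in control libraries (log2 change -1.35, SE 0.54), and Nos3, the endothelial nitric oxide synthase, was at 0.49 (SE 0.72). The muscle members Cav3 and Cavin4 were not listed. For comparison, 6 genes listed as membrane raft scaffolds (flotillins, stomatins and erlins) had a median log2 change of 0.06, and 11 clathrin coat genes a median of 0.26. In either list 0 were called by limma or by DESeq2 with the replicate number. The largest changes were those of Stom (0.42, SE 0.50), Stoml2 (-0.22, SE 0.18) and Flot2 (0.13, SE 0.19) among the scaffolds, and of Ap2s1 (0.47, SE 0.33), Epn1 (0.43, SE 0.15) and Cltb (0.34, SE 0.35) among the clathrin genes. Groups did not overlap for Plvap and Tgfbr2 in the lower direction (5.44% of tested genes). The same held for the clathrin genes Epn1 and Ap2a1 in the higher direction (6.29%).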

How the data were processed

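Total RNA was sequenced from 6 organoid samples, with TruSeq libraries that do not mark strand, per the labels' protocols. Alignment and scaling tools named in the submitters' processing notes are Trimmomatic, STAR (2.5.2b) and DESeq2 (version 1.32.0), with GRCm38 as the build. The counting tool and annotation are not given in the sources used here. The authors deposited a signal per gene, the read count over 1 size factor per library. Within 0.001 of a read, 100% of values were whole reads, which were recovered. All 6 deposited tables were identical, so 1 was used. Symbols matched 14219 of 14254 genes.

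The members and gene lists were chosen with earlier results of these data known. The test was limma-trend (limma 3.58.1, R 4.3.3) on log2(normalised count + 1) over the 13997 genes that reached 10 in 3 or more samples. Its p-values were adjusted by Benjamini-Hochberg and called below 0.05. edgeR 4.0.16 and DESeq2 1.42.0 were run on the recovered reads. Deviations from group means correlated across genes at r = 0.677, 0.568 and 0.443 for libraries of the same number. Numbers were therefore treated as pairs in the values given by pair and in the fits with the replicate number, although no label defines the number. The limma test described above was unpaired and held the group alone. Knockdown 2 also correlated with control 3 (0.385) and knockdown 3 with control 2 (0.365). The split of libraries numbered 1 from the rest enters all of these values, so they bear little on which of libraries 2 and 3 belong together. The fits were also run on simulated counts with equal dispersion for all genes and no split by library number. That check therefore does not show how the fits behave with the spread seen here. Genes named were all members, Jag1, the 3 nearest genes per member and up to 3 tested genes with the largest change per list. Listed genes whose groups did not overlap were named too. Spike-ins were not tested as genes. Their reads set the scale of the fit with spike-in scaling and were among the features behind the DESeq2 size factors. Libraries of a group differed by far more than counting error (chi-square per degree of freedom of 18.3 to 310.7), so none was a copy of another.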

Additional observations from a re-analysis of the deposited data

How the results depend on the processing

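Limma called 0 genes, with smallest adjusted p of 0.604. With the replicate block the count was 2 for limma and 2 for edgeR. It was 174 in DESeq2 and 1000 in DESeq2 with the replicate block, and 116 with spike-in scaling. It ran from 0 to 294 without 1 library (294 without control 1, 1 without knockdown 1), from 0 to 1346 without both libraries of a number, and was 2178, 100 and 128 for DESeq2 with the block without both libraries numbered 1, 2 and 3, a setting chosen after seeing the data.

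Cavin2 kept a negative sign in every fit run. It passed in DESeq2 (-2.11), in DESeq2 with the replicate block (-2.32) and with spike-in scaling (-2.44), and its change ran from -2.81 to -1.93 without 1 library, from -3.16 to -1.71 without a pair (adjusted p from 0.00421 to 1.0), and was -3.16, -1.71 and -1.91 in DESeq2 with the block without pairs 1, 2 and 3 (adjusted p at most 0.0459). Jag1 passed in DESeq2 with the replicate block (-1.02), ran from -1.41 to -0.73 without 1 library or a pair, and passed in DESeq2 with the block without pair 1 (-1.10) but not without pair 2 (-0.73) or 3 (-1.24). Without 1 library or a pair, Cav1 ran from -0.92 to 1.63, Cav2 from -0.82 to 0.16, Cavin1 from -0.29 to 0.041, Ehd2 from -0.86 to 0.086 and Cavin3 from 0.27 to 0.91, and Cavin3 ran from 0.28 to 0.92 in DESeq2 with the block without a pair. Otherwise the replicate block changed no call of a member, nor did the pseudocount of 4, no filter or a filter at 50. The cause of these differences was not tested. Every member had at least 152 reads in each library.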
